A study of Rattus norvegicus with 12 samples.

Results

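The 33 genes described here encode the folding machinery of the endoplasmic reticulum (ER) and the unfolded protein response, and were chosen by gene symbol from a list drawn up with earlier results of these data known. All 33 were present in the deposited table of 18344 rows, each in 1 row, and all 33 were among the 14257 genes tested, which reached at least 1 FPKM in at least 3 of 12 libraries. FPKM, fragments normalised to transcript length and library size, is a level per length and can be set side by side between genes. By role the list held 9 chaperones and cofactors, 3 genes of the lectin cycle, 6 of disulfide formation, 4 stress sensors and transcription factors, 9 of ER-associated degradation and 2 of translocation into the ER.

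Secreted and membrane proteins enter the ER through the Sec61 channel, are held by chaperones such as BiP, receive disulfide bonds from protein disulfide isomerases, and pass through calnexin and calreticulin when they carry glycans. Proteins that fail to fold are moved back to the cytosol and degraded. When unfolded proteins accumulate, the sensors IRE1, PERK and ATF6 raise the folding and degradation machinery and lower protein synthesis, IRE1 by splicing the Xbp1 mRNA, PERK by phosphorylating eIF2 alpha and ATF6 by being cleaved to a transcription factor. In hypoxic or ischaemic heart cells this response is a known part of the stress reaction.

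The study was a poly-A RNA sequencing experiment on cultured rat cells that had all gone through oxygen-glucose deprivation followed by reperfusion (OGD/R), an in vitro model of ischaemia. There were 4 groups of 3 libraries, OGD/R with NC, with CIRBP, with si-NC and with si-CIRBP, where CIRBP is the cold-inducible RNA binding protein, si marks a small interfering RNA and NC is the name of each arm's control. The titles name H9C2, a line from embryonic rat heart, while another label says rat astrocytes, and the identity of the cells is unclear. Every library analysed here had gone through OGD/R, so no untreated baseline enters. An unexplained prefix, "ad", marks the NC and CIRBP columns of the table. The labels call the replicates biological without naming separate cultures, so p-values measure only the spread between these libraries.

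Cirbp itself stood at 19.0, 19.8 and 20.1 FPKM in NC and at 34.3, 36.5 and 36.5 FPKM in CIRBP, a log2 difference of 0.83 (limma, adjusted p = 4.92e-06). In the libraries labelled si-CIRBP it stood at 26.5, 28.6 and 27.7 FPKM, against 29.0, 24.2 and 27.0 FPKM in si-NC, so the target of the siRNA was not lower and the label is used here only as a name. Of the marker lists, the 4 smooth muscle genes summed to 2.98 to 7.62 FPKM in the NC and CIRBP libraries and to 109 to 1362 FPKM in the si libraries, and the 7 skeletal and cardiac muscle genes in the table to 4.69 to 6.88 and 9.28 to 176 FPKM. The 4 astrocyte genes in the table summed to 115 to 195 FPKM and the 4 mesenchymal genes to 2254 to 2939 FPKM over all 12 libraries. Of the astrocyte genes Gfap stood at 1.44 to 6.89 FPKM, so most of that sum came from the others. Called higher in si-NC against NC were 3 of 4 smooth muscle, 1 of 5 skeletal and cardiac muscle and 1 of 4 mesenchymal genes. None of these lists had a lower call. Of 3 astrocyte genes 1 was called lower (-0.94 on the log2 scale), and the highest, at 1.69, was not called. The 1 macrophage gene tested was called higher (0.94) and the 1 oligodendrocyte and neuron gene tested lower (-0.50). Over all tested genes 10.2% were called higher and 21.4% lower. Library 1 of si-NC had the lowest sum of the si libraries for both muscle lists. Summed FPKM was 457775 to 502889 per library, and the read depth is unknown because no counts were used. In bulk RNA, fewer cells of a type and less RNA per cell cannot be told apart.

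Library 1 of si-CIRBP stood apart from its replicates over the whole table. Of the 33 genes 5 (15.2%), and of all tested genes 16.7%, differed there by at least 0.5 on the log2 scale from the mean of the other 2 libraries of the group, and the largest of the 33 was Ero1a at 2.63. For libraries 2 and 3 of si-CIRBP that mean includes library 1, so their counts do not measure the spread between libraries 2 and 3 alone. There 2 of the 33 in each differed by that much (6.06%), beside 5.81% and 6.43% of all genes. In the si-NC libraries 0 of the 33 did, beside 5.51% to 11.3% of all genes, and in NC and CIRBP 0 of the 33, beside 2.38% to 3.22%. A list of 13 hypoxia-induced genes, chosen after earlier results were known and with 11 present, summed to 4260 FPKM in that library and to 2163 and 2079 FPKM in the other 2, against 1523 to 2055 FPKM in the libraries of NC, CIRBP and si-NC. The counts and some genes of the si arm are therefore given with and without this library. All other si-arm values include it and were not set beside a fit without it here. The 33 genes together made up 0.622% ± 0.00461 (SD, n = 3) of the summed FPKM in NC, 0.630% ± 0.00706 in CIRBP, 0.751% ± 0.0137 in si-NC and 0.783% ± 0.0911 in si-CIRBP, where library 1 held 0.888%.

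Several of these genes are known for ER stress response elements in their promoters, and the promoter sequences are shown because genes called higher and genes called lower in CIRBP than in NC both carry the element. Sequence windows from 250 bases before to 50 bases after each start site were taken from RefSeq on build GRCr8, and 25 of the 33 genes matched by symbol. An exact ER stress response element (ERSE: CCAAT, any 9 bases, CCACG, on either strand) was present in 9 of the 25 genes (36%) and in 22 of 33469 windows of all genes (0.0657%). The related ERSE-II (ATTGG, any base, CCACG) was present in 3 of the 25 (12%) and in 0.0508% of all windows. The short core CCACG, which both contain, was present in 21 of the 25 (84%) and in 31.6% of all windows. The UPRE (TGACG followed by TGG) was present in 1 gene, Hyou1, where it overlapped an ERSE-II, and in 0.595% of all windows. The ERSE was first described in promoters of genes such as Hspa5 and Hsp90b1, so its presence there is background. The stretches lie at chr3:38452923-38453015 (plus strand) for Hspa5, chr7:23012297-23012519 (minus) for Hsp90b1, chr15:102432484-102432602 (plus) for Dnajc3, chr19:40213117-40213203 (plus) for Calr, chr17:92941432-92941526 (plus) for Ero1b, chr14:84604508-84604622 (plus) for Xbp1, chr19:10614771-10614881 (minus) for Herpud1 and chr20:12766551-12766669 (minus) for Derl3. All are upstream of the start site on GRCr8, written 5′ to 3′ on the strand of the gene, and capitals mark the CCAAT and CCACG letters of a match or their complements ATTGG and CGTGG. Herpud1 carries an ERSE-II, the others an ERSE, and Hsp90b1 carries 2.
Hspa5: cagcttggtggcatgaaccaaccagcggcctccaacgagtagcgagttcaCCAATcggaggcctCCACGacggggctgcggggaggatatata
Hsp90b1: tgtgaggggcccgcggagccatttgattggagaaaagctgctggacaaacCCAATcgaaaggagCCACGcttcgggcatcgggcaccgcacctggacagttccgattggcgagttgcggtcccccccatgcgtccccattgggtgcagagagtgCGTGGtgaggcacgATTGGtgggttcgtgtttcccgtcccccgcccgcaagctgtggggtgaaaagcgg
Dnajc3: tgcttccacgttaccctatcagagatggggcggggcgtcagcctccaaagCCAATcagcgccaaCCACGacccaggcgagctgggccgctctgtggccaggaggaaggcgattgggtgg
Calr: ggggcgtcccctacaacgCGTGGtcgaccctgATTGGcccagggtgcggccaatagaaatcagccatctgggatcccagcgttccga
Ero1b: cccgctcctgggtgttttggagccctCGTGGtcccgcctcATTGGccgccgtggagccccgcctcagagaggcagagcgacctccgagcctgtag
Xbp1: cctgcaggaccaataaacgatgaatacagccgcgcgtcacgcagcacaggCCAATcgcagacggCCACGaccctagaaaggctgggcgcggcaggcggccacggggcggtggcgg
Herpud1: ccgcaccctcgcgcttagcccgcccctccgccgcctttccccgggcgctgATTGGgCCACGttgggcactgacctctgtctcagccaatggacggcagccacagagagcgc
Derl3: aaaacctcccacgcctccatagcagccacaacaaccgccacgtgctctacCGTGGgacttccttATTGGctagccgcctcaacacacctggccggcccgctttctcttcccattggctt

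Of the 12 genes with an ERSE or ERSE-II, 3 were called higher in CIRBP than in NC (Hsp90b1, Ero1b and Herpud1), 7 lower (Hspa5, Hyou1, Dnajb11, Dnajc3, Calr, Xbp1 and Derl3) and 2 neither (Creld2 and Canx), with a median log2 difference of -0.17, where 27.9% of all tested genes were called higher and 42.8% lower. The 13 genes with a window but no such match split into 5 higher, 5 lower and 3 not called, with a median of 0.08. The 8 genes without a window in the table split into 5 higher and 3 not called, with a median of 0.16. A match is only a run of letters in this window, and binding was not measured. Scaling the libraries to one median took Hspa5, Hyou1, Dnajb11 and Calr out of the genes called lower and made Creld2 and Canx called higher. Scaling by median ratios did the same, except that Hspa5 stayed called lower. No difference between these sets of genes was tested.

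**Figure D1:**
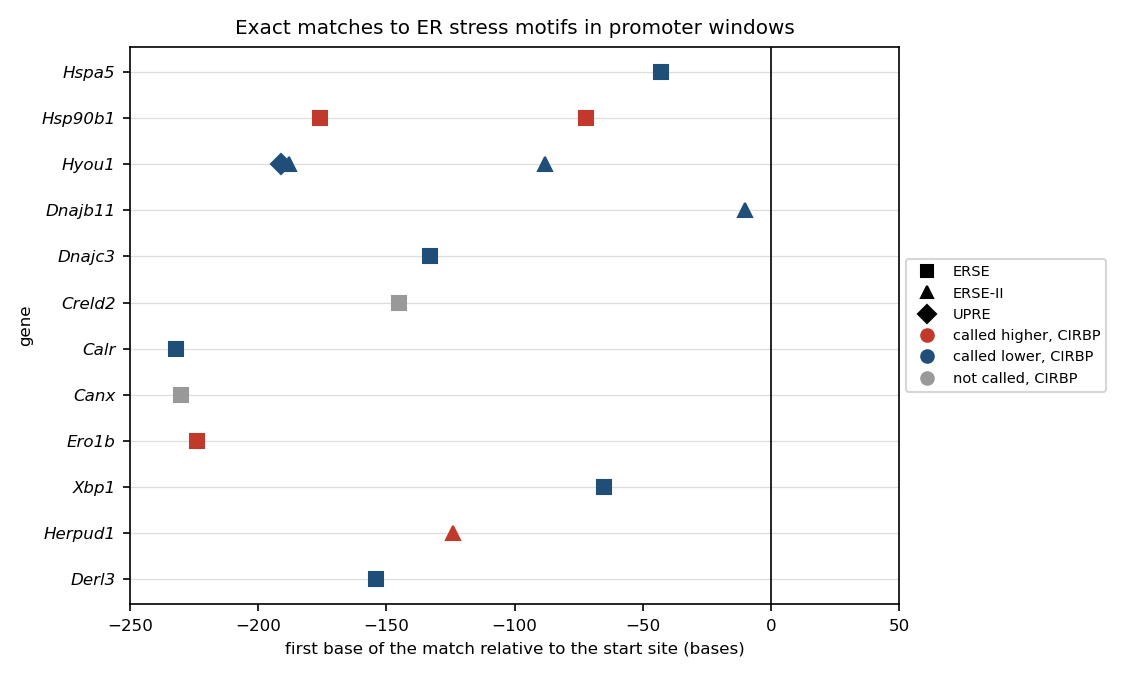
Position of exact ERSE (squares), ERSE-II (triangles) and UPRE (diamond) matches relative to the start site, in bases, for the 12 genes with an ERSE or ERSE-II. Colour gives the call of CIRBP against NC: 3 genes were called higher, 7 lower and 2 neither.

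CIRBP against NC asks what the libraries with more Cirbp mRNA show after OGD/R. In this comparison 25 of the 33 genes passed (limma, Benjamini-Hochberg adjusted p under 0.05), 13 higher and 12 lower, or 75.8%, near the 70.7% of all tested genes that passed. Higher calls made up 27.9% of all tested genes and lower calls 42.8%. With a log2 difference of at least 0.5 as well, 7 genes of the list were higher (Ero1b, Ero1a, Edem1, Herpud1, Pdia4, Pdia6 and Sel1l) and 3 lower (Selenos, Xbp1 and Derl3), where 10.8% and 20.3% of all tested genes were. The median log2 difference was 0.07 over the 33 genes and -0.08 over all tested genes. Direction depended on scaling for the smaller differences: with the libraries scaled to one median, the median of all genes moved to 0.03 and 20 of the 33 were called higher and 5 lower, and with scaling by median ratios it moved to 0.02 and the counts were 20 and 6. The 10 genes past 0.5 kept their direction and their call under both scalings.

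**Figure D2:**
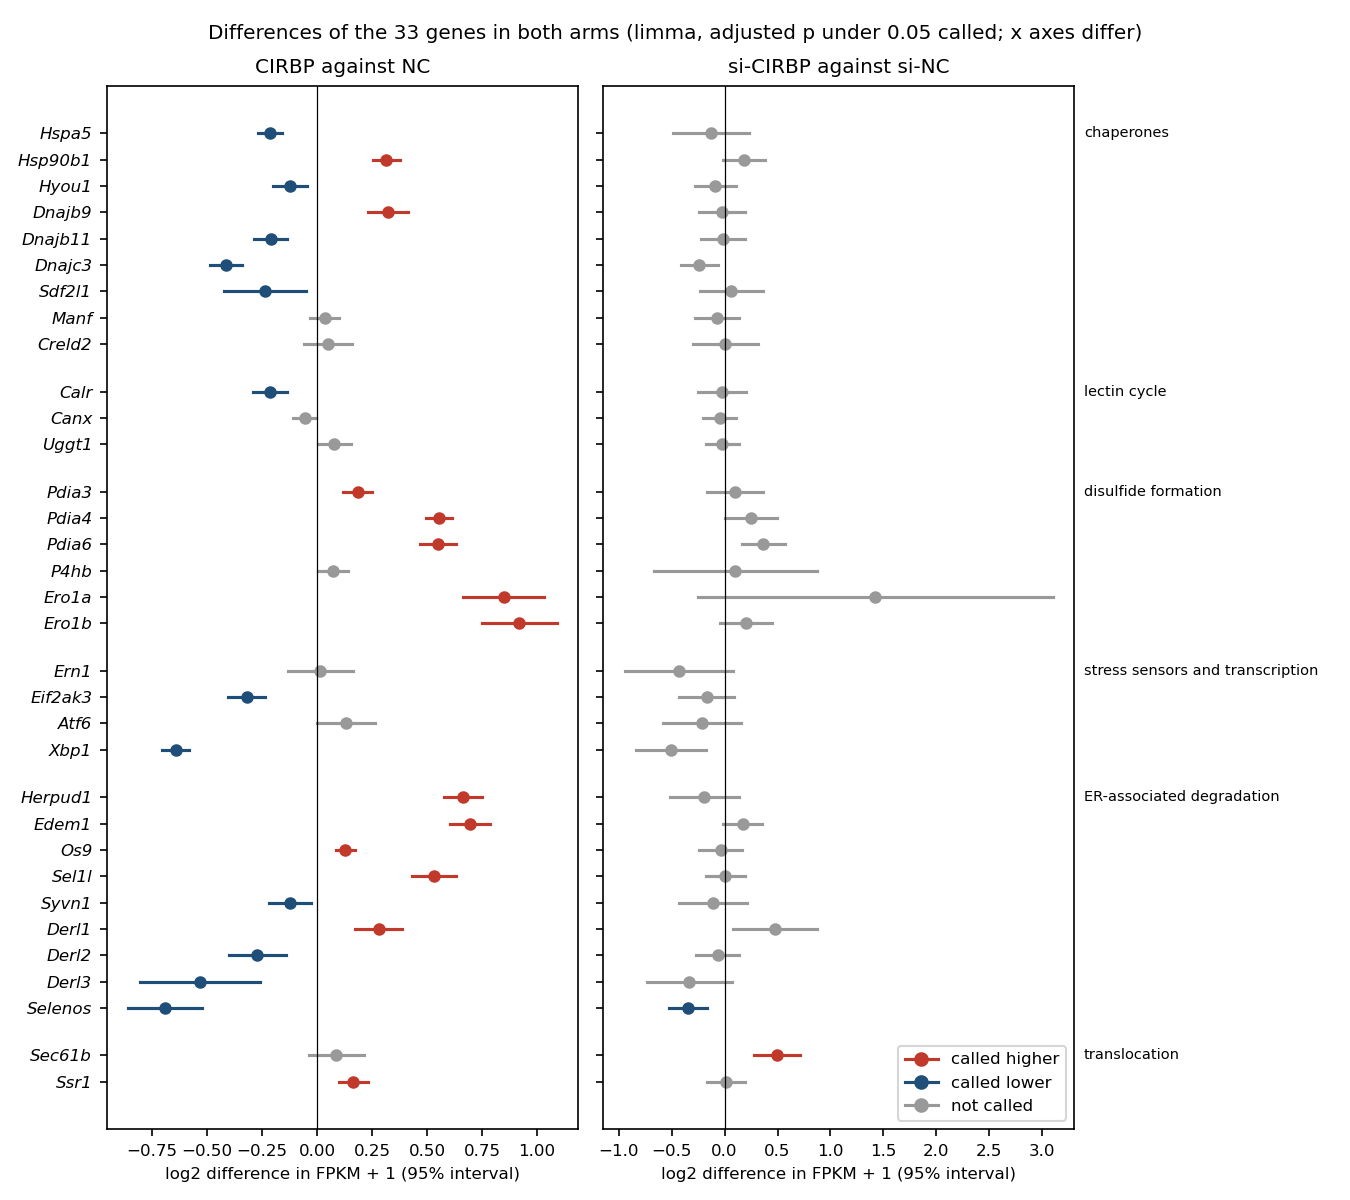
Log2 difference in FPKM + 1 with its 95% interval for the 33 genes, grouped by role, for CIRBP against NC (left) and si-CIRBP against si-NC (right, wider axis). On the left 13 genes were called higher and 12 lower, and on the right Sec61b was called higher and Selenos lower.

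Among the chaperones, 2 of 9 were higher in CIRBP and 5 lower, beside 27.9% and 42.8% of all tested genes. Their median log2 difference was -0.12, and -0.08 over all tested genes. With the libraries scaled to one median 4 chaperones were higher and 1 lower, with a median of 0.03. By median ratios the counts were 4 and 2, so the direction for this role depended on scaling. Hspa5 encodes BiP, the main HSP70 chaperone of the ER and a regulator of the stress sensors. It stood at 236, 232 and 242 FPKM in NC, 204, 203 and 204 FPKM in CIRBP, 272, 280.3 and 285 FPKM in si-NC, and 201, 283 and 290.4 FPKM in si-CIRBP. CIRBP lay below NC without overlap and library 1 alone was low in si-CIRBP, below every si-NC library. The log2 difference of Hspa5 was -0.21 (SE 0.0222, adjusted p = 0.000195 in CIRBP against NC), and it was -0.06 with the libraries scaled to one median (adjusted p = 0.0633). With scaling by median ratios it was -0.07 and still called lower (limma, adjusted p = 0.04). In the si arm the Hspa5 difference was -0.13 (95% interval -0.49 to 0.23), and 0.04 without library 1 of si-CIRBP. Hsp90b1, the ER's HSP90 chaperone GRP94, was higher in CIRBP, with a mean of 206 against 165 FPKM (log2 difference 0.32). The cochaperone Dnajb9 (ERdj4), a known target of XBP1, was also higher, at 12.3 against 9.64 FPKM (log2 difference 0.32). Dnajc3 (p58IPK), an inhibitor of PERK and a cochaperone of BiP, was lower, at 26.3 against 35.4 FPKM (log2 difference -0.41).

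The other chaperones lower in CIRBP had smaller differences that did not pass with the libraries scaled to one median. They were Dnajb11 (ERdj3), at -0.21 on the log2 scale, Sdf2l1, a partner of ERdj3, at -0.24, and Hyou1, the ER nucleotide exchange factor GRP170, at -0.12, which turned to 0.03 with that scaling. Manf, a secreted stress-induced protein, had a log2 difference of 0.03 and Creld2, an ER stress-induced folding factor, one of 0.05, and neither passed, but with the libraries scaled to one median both did, at 0.19 (adjusted p = 0.000833) and 0.20 (adjusted p = 0.00676). In the lectin cycle, Calr (calreticulin) was lower, with 309.8 ± 8.42 FPKM in CIRBP against 359.5 ± 8.996 in NC (SD, n = 3), a log2 difference of -0.21 that was -0.06 after scaling to one median (adjusted p = 0.13). Canx (calnexin) at -0.06 and Uggt1, the folding sensor that adds glucose back to misfolded glycoproteins, at 0.08 did not pass, and with that scaling both passed, Canx turning to 0.09 (adjusted p = 0.0163) and Uggt1 at 0.23 (adjusted p = 0.000758).

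In disulfide formation 5 of 6 genes were higher in CIRBP, beside 27.9% of all tested genes, and P4hb, at 0.07, did not pass. The median log2 difference was 0.55 over the 6. With the libraries scaled to one median P4hb passed at 0.22 (adjusted p = 0.000662). Pdia4 (ERp72), a protein disulfide isomerase, stood at 69.0, 67.2 and 70.1 FPKM in NC, 104, 99.95 and 101 FPKM in CIRBP, 83.1, 108 and 93.2 FPKM in si-NC and 112, 112 and 112 FPKM in si-CIRBP. CIRBP lay above NC, and si-CIRBP lay above si-NC by a narrow margin. For Pdia4 the log2 difference was 0.56 (SE 0.0245, adjusted p = 5.5e-06) in CIRBP against NC and 0.25 (adjusted p = 0.175) in the si arm.

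Pdia6 (P5), an isomerase that also acts on the sensors, stood at 180.3, 181 and 189.6 FPKM in NC, 275, 259 and 273 FPKM in CIRBP, 209.7, 188 and 219.9 FPKM in si-NC and 258, 265 and 272 FPKM in si-CIRBP. Both treated groups lay above their own controls without overlap. Its log2 difference was 0.55 (SE 0.0334, adjusted p = 1.85e-05) in CIRBP against NC. In the si arm it was 0.37 (SE 0.0838, adjusted p = 0.05), just outside the threshold, and both scalings of the libraries brought it inside (adjusted p = 0.0207 and 0.0241). Pdia3 (ERp57), the isomerase that works with calnexin and calreticulin, was higher in CIRBP by 0.18 on the log2 scale.

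Ero1a encodes an oxidase that feeds disulfide bonds to P4hb and is known to be induced by hypoxia. It stood at 25.0, 26.4 and 25.9 FPKM in NC, 48.1, 42.0 and 52.1 FPKM in CIRBP, 30.1, 25.0 and 27.8 FPKM in si-NC, and 258, 42.8 and 38.7 FPKM in si-CIRBP. All 6 treated libraries lay above all 6 controls, and library 1 of si-CIRBP lay far above the rest. The log2 difference was 0.85 (SE 0.0759, adjusted p = 9.95e-05) in CIRBP against NC, and in a fit of all 12 libraries, which shares the spread of the si-CIRBP group, it did not pass (adjusted p = 0.22). In the si arm the difference was 1.42 with a 95% interval from -0.25 to 3.102 (adjusted p = 0.243). Without library 1 it was 0.55 (adjusted p = 0.0304), and without both libraries 1 of the si arm 0.61 (adjusted p = 0.0218). Of the 11 hypoxia-induced genes, 8 were called higher and 1 lower in CIRBP than in NC, beside 27.9% and 42.8% of all tested genes. Their median log2 difference was 0.53 there and 0.87 in the si arm. In the si arm 0 of the 11 passed with limma, beside 8.1% of all tested genes. There 6 had an unadjusted p under 0.05, a threshold not counted over all genes. The part of the hypoxia-induced genes in the Ero1a result was not tested.

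Ero1b, the second oxidase and the least abundant of the 33 genes in NC, stood at 2.78, 2.98 and 2.44 FPKM in NC, 6.12, 5.79 and 6.24 FPKM in CIRBP, 2.98, 2.73 and 2.89 FPKM in si-NC and 3.40, 3.57 and 3.36 FPKM in si-CIRBP. CIRBP lay well above all other libraries, and si-CIRBP lay above si-NC without overlap. The log2 difference was 0.92 (SE 0.0695, adjusted p = 4.74e-05) in CIRBP and 0.20 (adjusted p = 0.257) in the si arm, on the scale of log2(FPKM + 1), which understates the change of so low a gene. P4hb, the founding protein disulfide isomerase and the most abundant of the 33, was chosen for its values by library after these were seen. It stood at 421, 421 and 432 FPKM in NC, 453, 433 and 454 FPKM in CIRBP, 708, 624 and 668 FPKM in si-NC and 1229, 538 and 551 FPKM in si-CIRBP. The high mean of si-CIRBP came from library 1, and the other 2 libraries lay below every si-NC library. The P4hb difference in the si arm was 0.10 (95% interval -0.67 to 0.87), and -0.29 without library 1 of si-CIRBP (adjusted p = 0.0893).

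**Figure D3:**
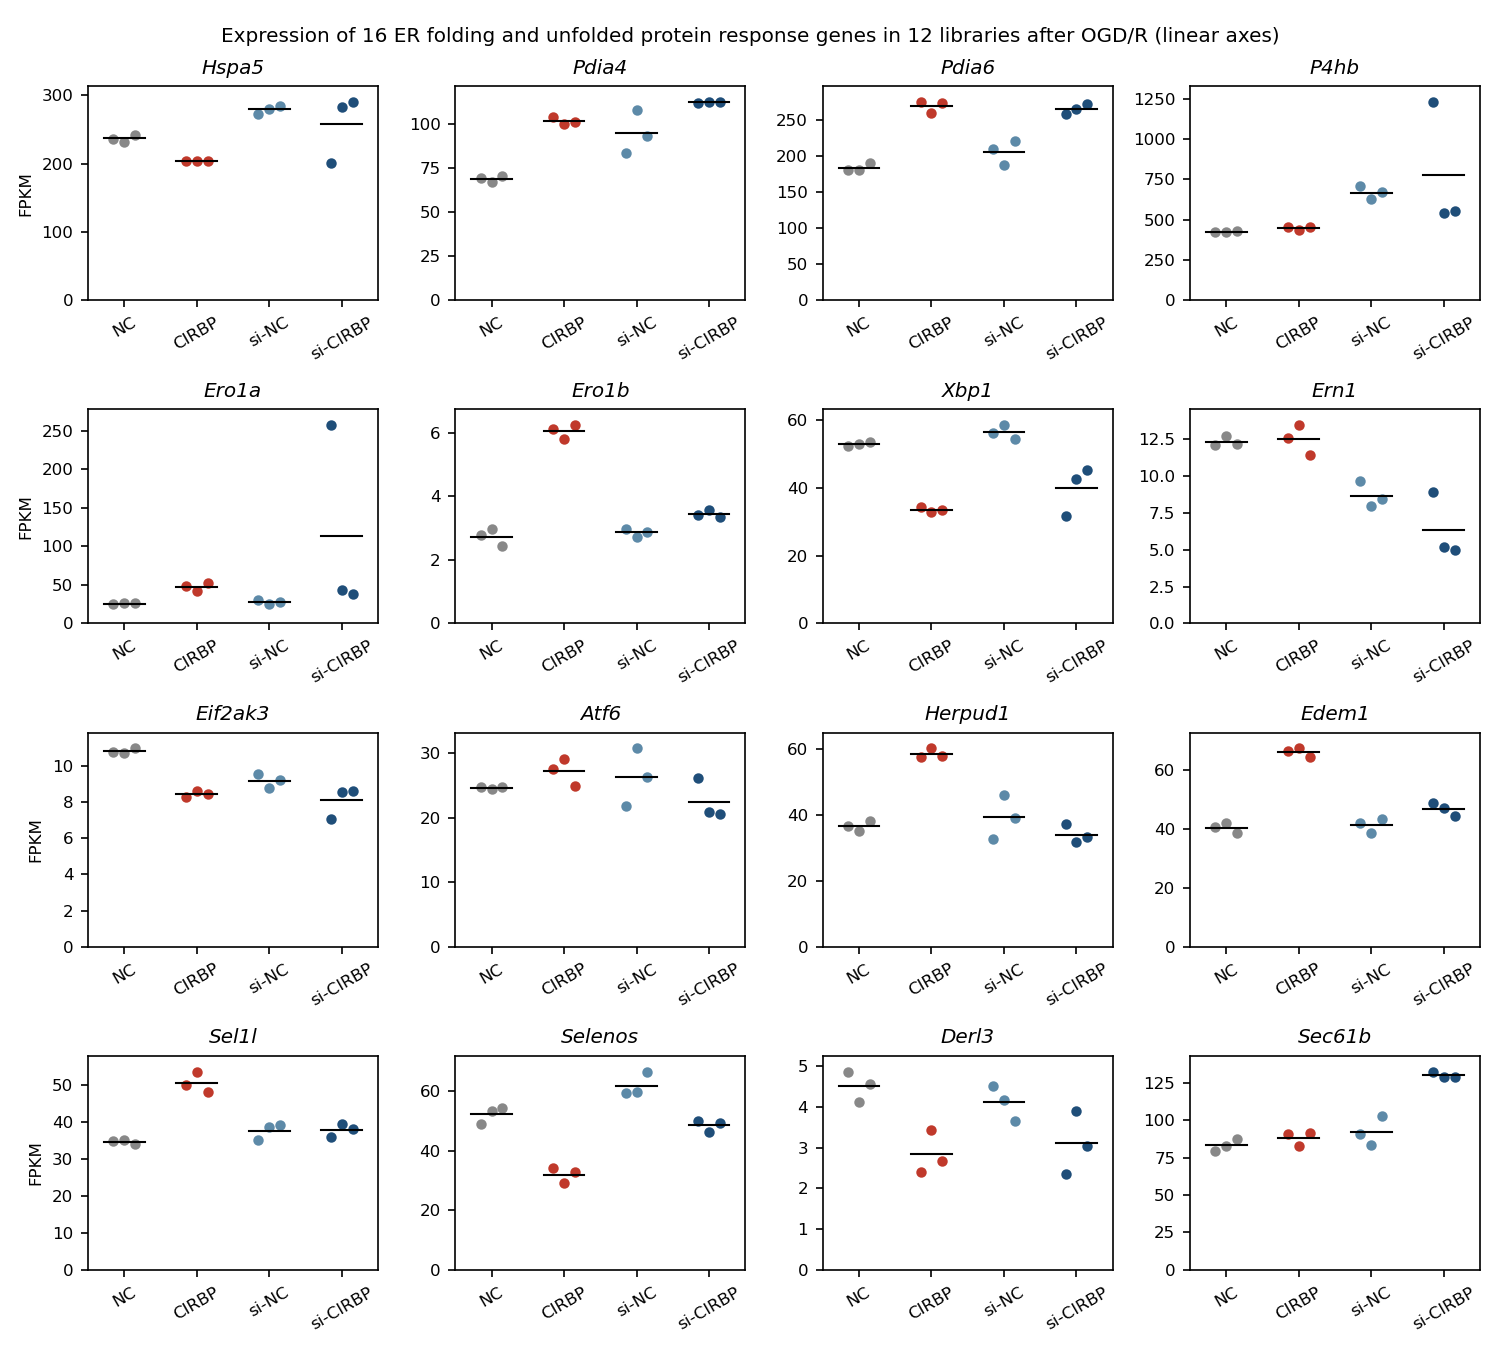
FPKM of 16 of the 33 genes in each of the 12 libraries (points, linear axes from 0, libraries 1 to 3 from left to right) with the group mean (line). Ero1a at 258 FPKM and P4hb at 1229 FPKM in library 1 of si-CIRBP stand above the other libraries, while Ero1b, Herpud1, Edem1 and Sel1l are high in the CIRBP group.

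Of the 4 sensors and transcription factors, 2 were lower in CIRBP than in NC, beside 42.8% of all tested genes, and 2 did not pass. Xbp1 encodes the transcription factor that IRE1 activates by splicing. It stood at 52.3, 52.9 and 53.6 FPKM in NC, 34.4, 32.7 and 33.5 FPKM in CIRBP, 56.2, 58.5 and 54.4 FPKM in si-NC and 31.6, 42.7 and 45.1 FPKM in si-CIRBP. Both treated groups lay below their controls in every library. The log2 difference of Xbp1 was -0.64 (SE 0.0246, adjusted p = 3.53e-06) in CIRBP against NC. In the si arm it was -0.51 (SE 0.137, adjusted p = 0.0726), and without library 1 of si-CIRBP it was smaller but passed, at -0.35 (adjusted p = 0.0283). The values are per gene and do not separate spliced from unspliced Xbp1.

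Eif2ak3 (PERK) stood at 10.7, 10.7 and 10.97 FPKM in NC, 8.29, 8.63 and 8.44 FPKM in CIRBP, 9.56, 8.75 and 9.24 FPKM in si-NC and 7.09, 8.54 and 8.64 FPKM in si-CIRBP. Treated libraries lay below their controls in both arms, narrowly so in the si arm. The log2 difference was -0.32 (SE 0.0349, adjusted p = 0.000247) in CIRBP and -0.17 (adjusted p = 0.367) in the si arm. Ern1 (IRE1 alpha) stood at 12.1, 12.7 and 12.1 FPKM in NC, 12.6, 13.5 and 11.4 FPKM in CIRBP, 9.65, 7.95 and 8.43 FPKM in si-NC and 8.92, 5.17 and 4.99 FPKM in si-CIRBP. CIRBP overlapped NC, and 2 of the 3 si-CIRBP libraries lay below all others while library 1 did not. The Ern1 difference was 0.02 in CIRBP (95% interval -0.13 to 0.16) and -0.43 in the si arm (adjusted p = 0.246), or -0.67 without library 1 of si-CIRBP (adjusted p = 0.025).

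Atf6 stood at 24.8, 24.5 and 24.7 FPKM in NC, 27.5, 29.1 and 25.0 FPKM in CIRBP, 21.8, 30.8 and 26.2 FPKM in si-NC and 26.2, 20.8 and 20.5 FPKM in si-CIRBP. The lowest CIRBP library lay just above the highest NC library, and the si groups overlapped. The log2 difference of Atf6 was 0.13 (95% interval -5e-04 to 0.27, adjusted p = 0.0695) in CIRBP and -0.21 (adjusted p = 0.429) in the si arm. Atf6 passed as higher in CIRBP under both scalings of the libraries, and as lower in the si arm without both libraries 1 (-0.44, adjusted p = 0.0434).

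In ER-associated degradation 5 of 9 genes were higher in CIRBP and 4 lower, beside 27.9% and 42.8% of all tested genes. Under both scalings of the libraries 5 were higher and 2 lower. Herpud1, a stress-induced scaffold of the ubiquitin ligase HRD1, stood at 36.6, 35.1 and 38.1 FPKM in NC, 57.6, 60.1 and 57.9 FPKM in CIRBP, 32.6, 45.9 and 39.1 FPKM in si-NC and 37.1, 31.6 and 33.2 FPKM in si-CIRBP. The CIRBP libraries lay above all others, and the si groups overlapped. Its log2 difference was 0.66 (SE 0.0352, adjusted p = 1.07e-05) in CIRBP and -0.19 (adjusted p = 0.412) in the si arm.

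Edem1, a lectin-like protein that hands misfolded glycoproteins to degradation, stood at 40.7, 42.1 and 38.4 FPKM in NC, 66.5, 67.3 and 64.3 FPKM in CIRBP, 42.1, 38.6 and 43.4 FPKM in si-NC and 48.8, 46.9 and 44.2 FPKM in si-CIRBP. CIRBP lay above all others and si-CIRBP just above si-NC. For Edem1 the difference was 0.70 (SE 0.0377, adjusted p = 1.17e-05) in CIRBP and 0.17 (adjusted p = 0.214) in the si arm. Sel1l, the adaptor of HRD1, stood at 35.0, 35.1 and 34.1 FPKM in NC, 50.2, 53.7 and 48.1 FPKM in CIRBP, 35.1, 38.7 and 39.2 FPKM in si-NC and 35.9, 39.4 and 38.2 FPKM in si-CIRBP. Only the CIRBP libraries of these 12 lay above 40 FPKM. For Sel1l it was 0.53 (SE 0.0414, adjusted p = 5.46e-05) in CIRBP and 0.01 (95% interval -0.18 to 0.19) in the si arm.

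Selenos (VIMP), a selenoprotein that links the retrotranslocation complex to the ATPase VCP, stood at 48.9, 53.3 and 54.5 FPKM in NC, 34.1, 29.0 and 32.9 FPKM in CIRBP, 59.3, 59.9 and 66.6 FPKM in si-NC and 49.97, 46.4 and 49.3 FPKM in si-CIRBP. Both treated groups lay below their controls without overlap. The log2 difference of Selenos was -0.69 (SE 0.069, adjusted p = 0.000166) in CIRBP and -0.34 (SE 0.0754, adjusted p = 0.0453) in the si arm, the latter lost under both scalings of the libraries (adjusted p = 0.117 and 0.0845). Derl3, a derlin, stood at 4.86, 4.12 and 4.57 FPKM in NC, 2.40, 3.44 and 2.66 FPKM in CIRBP, 4.52, 4.16 and 3.65 FPKM in si-NC and 2.36, 3.89 and 3.04 FPKM in si-CIRBP. CIRBP lay below NC, and si-CIRBP overlapped si-NC. Its log2 difference was -0.53 (SE 0.112, adjusted p = 0.00534) in CIRBP and -0.33 (adjusted p = 0.255) in the si arm.

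The remaining degradation genes changed less in CIRBP. Derl1, a channel component of retrotranslocation, was higher by 0.28 on the log2 scale and Os9, a lectin that selects substrates, by 0.13. Derl2 was lower, at -0.27, and Syvn1, the ligase HRD1 itself, at -0.12. With the libraries scaled to one median neither passed, Derl2 at -0.12 (adjusted p = 0.0857) and Syvn1 turned to 0.02. In the si arm Derl1 stood at 80.4 FPKM in library 1 of si-CIRBP and at 53.5 and 54.4 FPKM in the other 2, against 42.0, 42.9 and 47.1 FPKM in si-NC. The Derl1 difference was 0.48 (adjusted p = 0.125), or 0.29 without that library (adjusted p = 0.0559).

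Of the 2 translocation genes, Ssr1, a subunit of the translocon-associated protein complex, was higher in CIRBP by 0.17 on the log2 scale. Sec61b, a subunit of the Sec61 channel, stood at 79.2, 82.5 and 87.6 FPKM in NC, 90.5, 83.0 and 91.4 FPKM in CIRBP, 90.4, 83.2 and 103 FPKM in si-NC and 132, 129 and 129 FPKM in si-CIRBP. The si-CIRBP libraries lay above all others, and CIRBP overlapped NC. Sec61b had a log2 difference of 0.09 (adjusted p = 0.174) in CIRBP, which passed at 0.24 with the libraries scaled to one median (adjusted p = 0.00591), and 0.50 (SE 0.0908, adjusted p = 0.0298) in the si arm.

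In si-CIRBP against si-NC as a whole, 2 of the 33 genes passed, Sec61b higher and Selenos lower, or 6.06%, where 8.1% of all tested genes passed, 1.87% higher and 6.24% lower. At an unadjusted p under 0.05 there were 7 of the 33, but all genes were not counted at that threshold, so the 8.1% is no background for it. The median log2 difference was -0.03 over the 33 genes and -0.04 over all tested genes. The spread of the si libraries was wider: the median SD over the 33 genes was 0.1 on the log2 scale in si-NC and 0.0769 in si-CIRBP, against 0.0379 in NC and 0.0449 in CIRBP. Without library 1 of si-CIRBP 6 of the 33 (18.2%) passed, beside 13.2% of all tested genes, Pdia6, Ero1a and Sec61b higher and Ern1, Xbp1 and Selenos lower. Leaving out any other single library of the arm left 0 of the 33 (limma), beside 0.526% to 3.23% of all tested genes. In those fits 5 to 7 of the 33 had an unadjusted p under 0.05, again without a count over all genes.

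**Figure D4:**
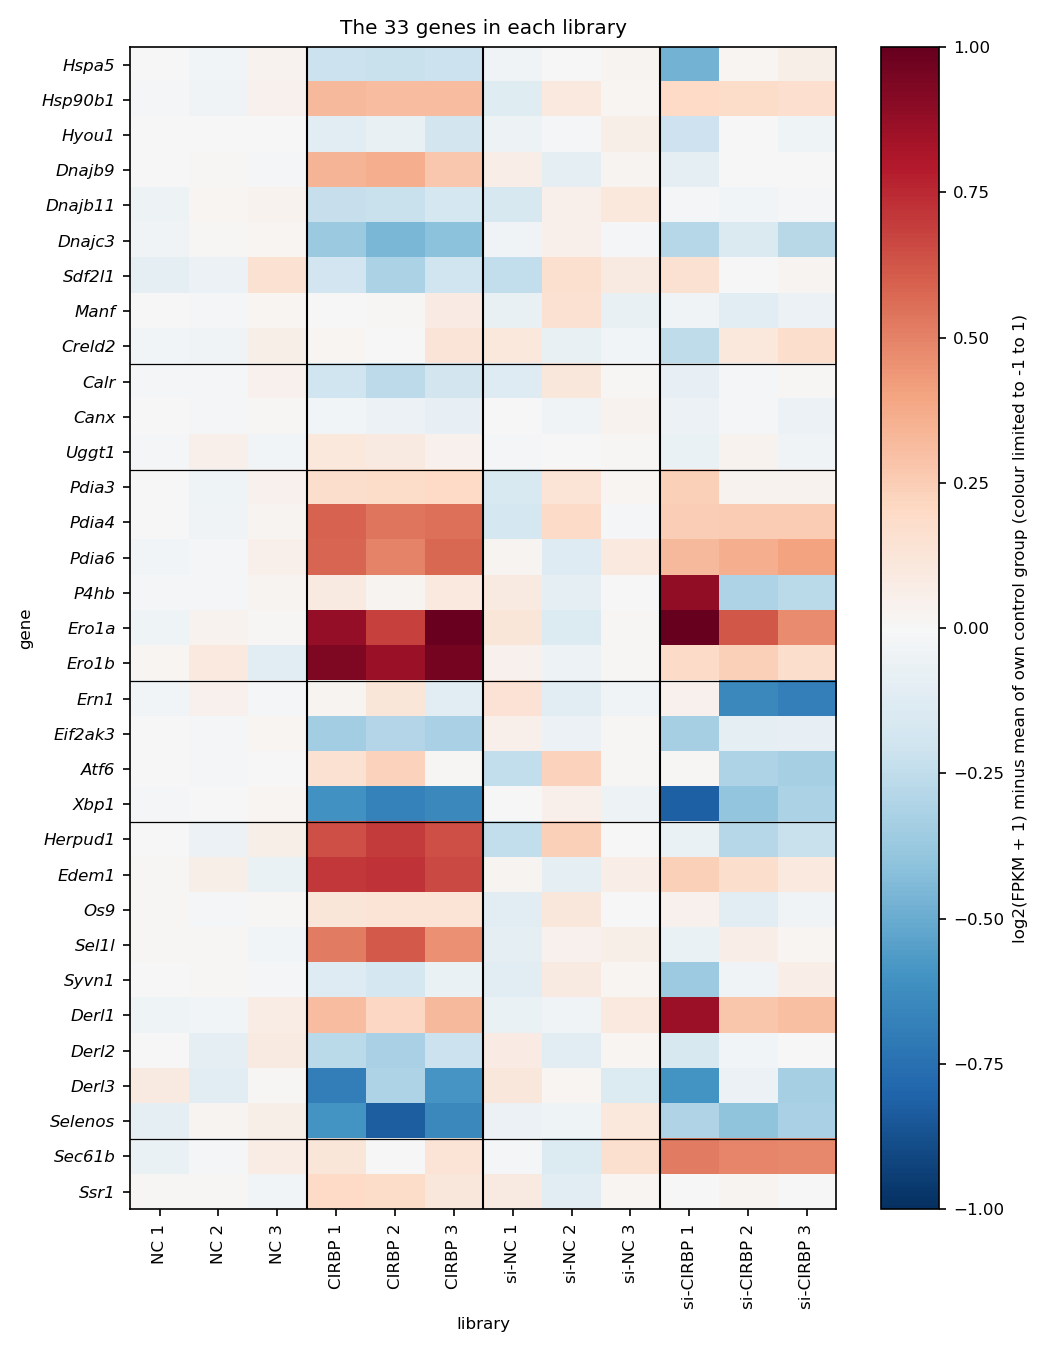
Log2(FPKM + 1) of the 33 genes (rows, by role) in the 12 libraries (columns), minus the mean of the library's own control group, NC or si-NC, with the colour limited to -1 to 1. The 3 CIRBP libraries look alike, while library 1 of si-CIRBP differs from libraries 2 and 3 in Ero1a, P4hb, Derl1, Ern1 and Hspa5.

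The test of the difference between the arms, CIRBP minus NC less si-CIRBP minus si-NC, asks which genes differed by another amount in the 2 arms. It passed for 7 of the 33 genes, where 17.8% of all tested genes passed, 5 with the larger value in the CIRBP arm and 2 in the si arm. The 5 were Herpud1 at 0.85, Ero1b at 0.72, Edem1 and Sel1l at 0.52 each and Dnajb9 at 0.35 on the log2 scale, and the 2 were Sec61b at -0.41 and Selenos at -0.35. Herpud1, Ero1b, Edem1 and Sel1l passed under all 22 alternatives. For Ero1a, Xbp1 and Pdia6 the difference between the arms did not pass, with values of -0.57 (95% interval -2.29 to 1.14), -0.14 (-0.46 to 0.19) and 0.18 (-0.0039 to 0.37). Without library 1 of si-CIRBP 13 of the 33 (39.4%) passed, beside a rise from 17.8% to 31.6% over all tested genes, among them Hspa5 at -0.25 (adjusted p = 0.00456), Xbp1 at -0.29 (adjusted p = 0.00496) and Ern1 at 0.68 (adjusted p = 0.0019), and P4hb turned from -0.03 to 0.36 (adjusted p = 0.00559).

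The control groups of the arms were themselves apart, and this comparison shares NC and si-NC with those above. In si-NC against NC, 13 of the 33 genes were higher, where 10.2% of all tested genes were, and 2 lower, where 21.4% were. The median log2 difference was 0.14 over the 33 genes and -0.07 over all tested genes. P4hb was higher by 0.65, Sdf2l1 by 0.50, Calr by 0.50, Pdia4 by 0.45, Hsp90b1 by 0.42 and Hspa5 by 0.24, and Ern1 (-0.47) and Eif2ak3 (-0.21) were lower. In the same comparison the median log2 difference was 4.79 over the 4 smooth muscle genes (3 called), 2.47 over 5 skeletal and cardiac muscle genes (1 called) and 1.36 over 4 mesenchymal genes (1 called, the lowest at -0.18). Their part in it was not tested. Without library 1 of si-NC, the lowest for the muscle lists, 19 of the 33 passed (57.6%). So did 49.3% of all tested genes, against 31.6% with it. Without library 2 of NC, 2 of the 33 passed (6.06%), beside 8.91% of all tested genes. Without library 1 or 3 of NC or library 3 of si-NC, 4 passed (12.1%). The shares of all tested genes there were 8.98%, 11.3% and 12.5%, so the fall was not particular to the 33.

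Genes of the same pathway outside the 33 were taken from 7 lists, with 137 genes tested. In CIRBP against NC, 63 were higher and 51 lower, together 83.2%, beside 70.7% of all tested genes (27.9% higher and 42.8% lower), and their median was 0.03, beside -0.08 over all tested genes. With the libraries scaled to one median the counts were 78 and 39. Of UPR signalling genes, 7 of 17 were higher and 9 lower. Mbtps1, the protease that cleaves ATF6, was higher by 0.79 and Tmbim6, an inhibitor of cell death at the ER, by 0.52, and Traf2, an adaptor of IRE1, was lower (-2.38), as was Ppp1r15a (GADD34, -1.71), the phosphatase subunit that reverses PERK signalling.

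Atf4, the transcription factor translated when eIF2 alpha is phosphorylated, stood at 236, 229 and 239 FPKM in NC, 272, 275 and 264 FPKM in CIRBP, 186, 229 and 193 FPKM in si-NC and 148, 91.8 and 95.3 FPKM in si-CIRBP. It was higher in CIRBP (0.21, adjusted p = 5e-04) and lower in si-CIRBP (-0.88, adjusted p = 0.0463), and the difference between the arms passed at 1.09 (adjusted p = 0.00681). Ddit3 (CHOP), a target of ATF4 named here after its values were seen, stood at 194, 194 and 208 FPKM in NC, 119, 135 and 117 FPKM in CIRBP, 127, 100.1 and 112 FPKM in si-NC and 99.5, 21.8 and 23.6 FPKM in si-CIRBP. Ddit3 was lower in CIRBP (-0.68, adjusted p = 9.86e-05), and in the si arm, where library 1 again stood above the other 2, the difference of -1.56 did not pass (adjusted p = 0.131).

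The counts of the other lists in CIRBP against NC stand beside 27.9% higher and 42.8% lower over all tested genes, and differences between the lists were not tested. Thiol oxidoreductases outside the 33 were higher in 12 of 15 and lower in 3, with Txndc12 at 0.53 and Tmx4 at 0.67, and Txndc11 at -0.46 and Tmx2 at -0.32. Other chaperones and cofactors were higher in 16 of 25 and lower in 5, with the BiP cochaperone Dnajc10 at 0.65 and the LRP chaperone Mesd at 0.46, and Dnajc25 at -1.07 and Fkbp7 at -0.70. Glycan processing genes were higher in 5 of 7 and lower in 1, with the lectin Erlec1 at 0.38 and the glucosidase subunit Prkcsh at 0.22, and Ngly1, the cytosolic glycanase, at -0.37. Other degradation genes were higher in 5 of 21 and lower in 12, with the ligases Rnf5 at 0.72 and Rnf139 at 0.18, and Aup1 at -0.86 and Ubxn4 at -0.88. Translocation and N-glycosylation genes were higher in 11 of 28 and lower in 10, with Ssr3 at 0.28 and the signal peptidase subunit Spcs3 at 0.27, and the oligosaccharyltransferase subunits Stt3b at -0.38 and Stt3a at -0.30. Export and retrieval genes were higher in 7 of 24 and lower in 11, with the KDEL receptor Kdelr1 at 0.40 and the cargo receptor Tmed3 at 0.41, and the COPII coat genes Sec31a at -0.46 and Sec24b at -0.59. Scaling the libraries to one median made the export list 9 higher and 7 lower and the translocation list 16 and 7, and left the degradation list with more lower calls, 7 and 10.

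In si-CIRBP against si-NC, 8 of these 137 genes passed, or 5.84%, 1 higher and 7 lower, beside 8.1% of all tested genes (1.87% higher and 6.24% lower), so the count lay near the background. The peroxiredoxin Prdx4 was higher by 0.34, and Traf2 (-1.08), Atf4 (-0.88), Aup1 (-0.51), Sec24a (-0.49), Herpud2 (-0.41) and Sec62 (-0.31) were among the lower. With the libraries scaled to one median the counts were 10 higher and 1 lower, and by median ratios 5 and 4, so the direction of these calls as a set depended on the scaling.

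**Figure D5:**
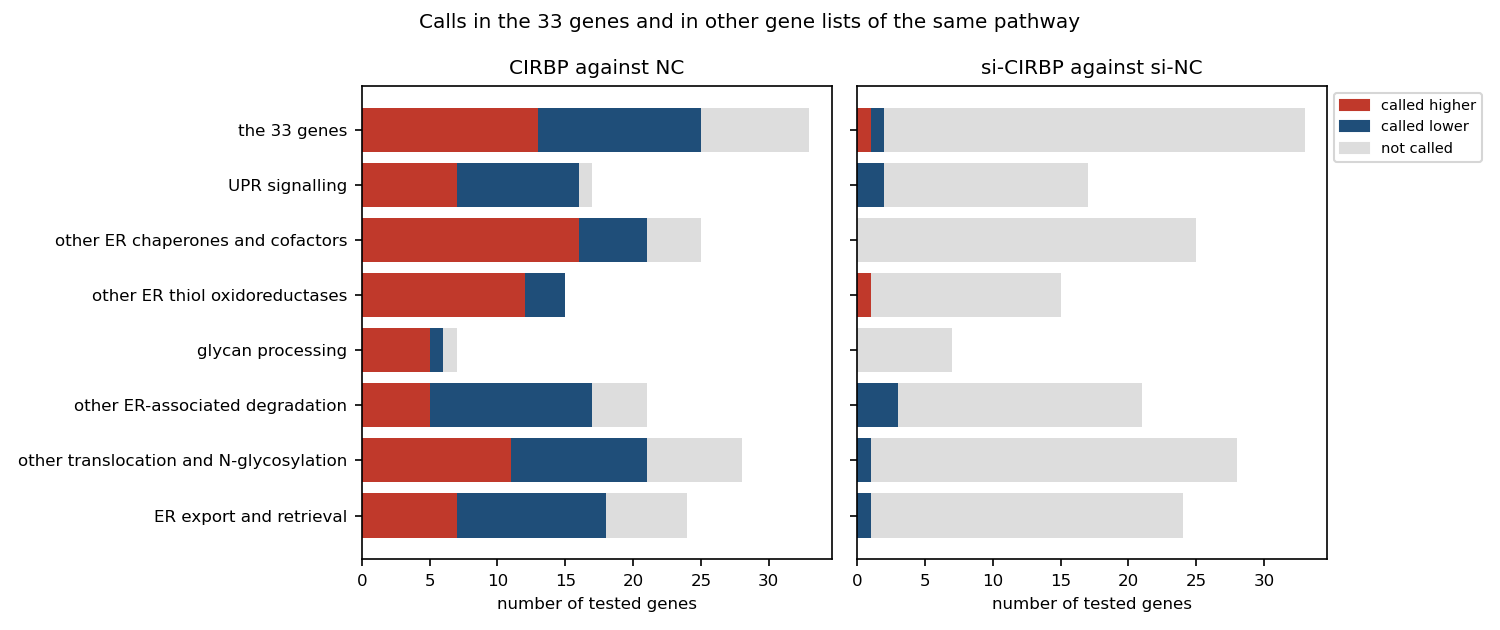
Number of tested genes called higher, called lower or not called in the 33 genes and in 7 other lists of the same pathway, for CIRBP against NC (left) and si-CIRBP against si-NC (right). On the left all 15 thiol oxidoreductases were called, 12 higher and 3 lower, and on the right 8 of the 137 genes in the 7 lists were called.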

How the data were processed

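Poly-A RNA had been sequenced in 12 libraries. Expression was used as FPKM per gene and library, computed by the authors, per the file headers. Bowtie2 2.3.3.1, Cufflinks 2.2.1 and the builds GRCm38 and mm10 (mouse) are named, without roles, per the submitters' processing notes, while rat Ensembl identifiers name the genes, so the build and annotation behind the values are unclear and the printed coordinates are those of RefSeq on GRCr8. For the strand setting and the handling of shared reads, nothing is stated in the sources used here.

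Libraries were grouped by title. Values were tested as log2(FPKM + 1) with limma 3.58.1 (R 4.3.3, eBayes with trend) over genes with at least 1 FPKM in at least 3 libraries, with Benjamini-Hochberg adjustment over all 14257 genes tested. Each pair of groups was fitted alone (4 residual degrees of freedom), since spread differed between arms, and the difference between arms on all 12 libraries (8 residual degrees of freedom). The fits were tested on simulated data. Every value is printed for genes with an absolute log2 difference of at least 0.5 and a call in either arm and for Hspa5, Xbp1, Ern1, Eif2ak3 and Atf6. Sec61b, called in the si arm at 0.4975, lies just under that rule and is printed as well. Of the pathway lists, up to 2 called genes per direction and arm with the smallest adjusted p are named. The members and lists were chosen with earlier results of these data known. Alternatives were other pseudocounts, no filter, 2 scalings, a fit of all libraries, other variance settings, a replicate block and leaving out libraries. Depth is unknown, so no counting intervals are given.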

Additional observations from a re-analysis of the deposited data

Results flagged for a closer look

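A test of the difference between the arms, over all 12 libraries with limma, passed for 7 of the 33 genes. This was 21.2%, near the 17.8% of all tested genes that passed. Herpud1 (0.85 on the log2 scale, adjusted p = 0.00372, 8.63e-05 to 0.0137 over 22 alternatives), Ero1b (0.72, adjusted p = 0.00189, 0.000969 to 0.00994), Edem1 (0.52, adjusted p = 0.00246, 0.000881 to 0.0104) and Sel1l (0.52, adjusted p = 0.00269, 0.000347 to 0.0105) had the larger value in the CIRBP arm, and all 3 CIRBP libraries lay above all 3 NC libraries. Dnajb9 (0.35, adjusted p = 0.0168, 0.00434 to 0.0521) lost its call in 1 alternative. Sec61b (-0.41, adjusted p = 0.0226, 0.00823 to 0.0629) had the larger value in the si arm and lost its call in 3 alternatives. Selenos (-0.35, adjusted p = 0.0393, 0.0325 to 0.138) was lower in both arms, more so in the CIRBP arm, and lost its call in 12 of the 22.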

How the results depend on the processing

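In CIRBP against NC the count of genes called among the 33 was 25, was 17 in a fit of all 12 libraries and 24 with a replicate block, and ran from 24 to 26 when each library was left out. Of the 25, 14 passed under all 15 alternatives. Scaling to one median or by median ratios made the negative differences of Hyou1 (0.0256, 0.0214), Canx (0.0944, 0.09) and Syvn1 (0.0174, 0.0134) positive. Hyou1 and Syvn1 went from called lower to not called, and Canx from not called to called higher. The scalings changed the calls over all genes from 3978 higher and 6099 lower to 5324 and 4763 or 5290 and 4804. In si-CIRBP against si-NC the count of 2 became 9 in the fit of all 12 libraries, 1 without the trend and 0 with the replicate block (limma). With that block 7 of the 33 had an unadjusted p under 0.05, a threshold not counted over all genes. For this comparison the count became 5 without both libraries 1 (an alternative chosen after seeing the data), and ran from 0 to 6 when each library was left out. Over all genes its 1155 calls became 4218, 100 with the replicate block and 2350 without both libraries 1, ran from 75 to 1889, and their split of 266 higher and 889 lower became 618 and 570 or 488 and 696 under the scalings. For the difference between the arms the 7 genes became 17 without both libraries 1 and ran from 4 to 13, and the 2535 calls over all genes became 5899 and ran from 1596 to 4503, with 980 higher and 1555 lower becoming 1192 and 1458 or 1396 and 1282. The P4hb difference there ran from -0.2327 to 0.362 when each library was left out, reversing without library 1 of si-CIRBP, and was 0.3175 without both libraries 1. In si-NC against NC the 15 ran from 2 to 19, and the 4503 calls over all genes became 2584 with the replicate block and ran from 1270 to 7033, with 1459 higher and 3044 lower becoming 1850 and 2593 or 1964 and 2516. Same-numbered libraries of 2 groups had correlations of deviations from -0.09 to 0.1. Differently numbered libraries were not correlated for comparison, so whether the replicate numbers pair the libraries was not decided. The cause of these changes was not tested. With the depth unknown, how far counting error limits Ero1b and Derl3, the lowest genes, cannot be given.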
